A study of Mus musculus with 2 samples.

Results

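Alternative promoters that lie far inside a gene were examined for open chromatin in mouse embryos. They were the transcription start sites (TSSs) of protein-coding transcripts in the GENCODE M21 annotation, on chromosomes 1 to 19, that lie 10 kb or more downstream of the 5'-most TSS of their gene and over 5 kb from a TSS of any other gene. The rule took 6599 of 52092 TSSs of protein-coding transcripts, in 3275 of 20807 protein-coding genes. TSSs of 1 gene within 500 bp of each other share peaks and were joined, which gave 5237 promoter sites. Of these genes, 2164 had 1 site, 656 had 2, 255 had 3 and 200 had 4 or more. The median distance of a site from the 5'-most TSS, called the first TSS here, was 39.9 kb, and the middle 50% of sites lay between 20.1 and 94.5 kb.

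Open chromatin had been mapped by DNase-seq, in which the enzyme DNase I cuts DNA where nucleosomes are displaced and the cut ends are sequenced. The samples were 2 biological replicates of B6NCrl embryos at embryonic day 10.5, male and female pooled, with no treatment or mutation on the labels, so there was 1 group and no contrast between conditions. The labels name separate biosamples under the same donor record and do not say how many embryos a replicate held. Each replicate came with its own list of peaks of 150 bp, 203095 in replicate 1 and 223678 in replicate 2 on chromosomes 1 to 19, and each peak carried a score from the authors, called strength here. The score's definition is not given in the sources used here. Its median over all peaks was 41 in replicate 1 and 50 in replicate 2 and its maximum on these chromosomes was 148 and 149, so strengths are compared within a replicate. Read depth is unknown from the files. At this stage an embryo mixes many tissues. Of 10 genes that mark embryonic tissues, 7 had a peak at the first TSS in both replicates, among them Sox2, Pax3 and Tbx18, and the others had one in a single replicate. None of 10 genes of differentiated blood cells, decidua, trophoblast or late organs, such as Cd4, Prl8a2 and Alb, had a first-TSS peak in either replicate. Other promoters of these genes were not examined, so this does not show that such cells were absent. A position was called open where a peak lay within 500 bp of it in both replicates.

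Many mammalian genes have more than 1 promoter. A promoter inside the gene can give a transcript with another 5' end, which may change only its untranslated leader or may start translation at another codon and give a protein with another N-terminus. Runx1, the master regulator of blood stem cell formation, is a well-known case with a distal and a proximal promoter used by different cells and stages. Promoters also differ in sequence. Those rich in CpG dinucleotides tend to be open in most cell types, and CpG-poor ones more often in particular tissues.

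The 100 bases upstream of alternative and first TSSs are shown for 4 genes in which the first TSS had no peak and an alternative site was strongly open, and for 1 CpG-poor alternative, chosen with these values known. Capitals mark CpG dinucleotides, sequences run 5' to 3' on the strand of the gene, and coordinates are those of mm10, read from RefSeq's GRCm38.p6.
Stag1 alternative, chr9:100643348-100643447, plus strand: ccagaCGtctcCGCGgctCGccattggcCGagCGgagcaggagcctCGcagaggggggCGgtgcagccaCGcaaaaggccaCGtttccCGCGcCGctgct
Stag1 first, chr9:100597698-100597797, plus strand: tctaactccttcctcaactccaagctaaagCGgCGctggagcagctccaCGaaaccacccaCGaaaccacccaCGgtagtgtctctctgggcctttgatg
Inip alternative, chr4:59783867-59783966, minus strand: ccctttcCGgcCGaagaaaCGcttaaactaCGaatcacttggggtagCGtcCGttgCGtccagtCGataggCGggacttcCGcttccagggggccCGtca
Inip first, chr4:59801590-59801689, minus strand: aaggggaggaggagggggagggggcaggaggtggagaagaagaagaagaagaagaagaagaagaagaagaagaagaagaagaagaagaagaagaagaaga
Runx1 alternative, chr16:92697329-92697428, minus strand: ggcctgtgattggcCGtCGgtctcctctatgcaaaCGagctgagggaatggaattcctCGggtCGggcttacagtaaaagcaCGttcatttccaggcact
Runx1 first, chr16:92826150-92826249, minus strand: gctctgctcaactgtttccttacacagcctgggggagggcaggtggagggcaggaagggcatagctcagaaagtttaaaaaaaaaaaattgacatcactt
Robo1 alternative, chr16:72663049-72663148, plus strand: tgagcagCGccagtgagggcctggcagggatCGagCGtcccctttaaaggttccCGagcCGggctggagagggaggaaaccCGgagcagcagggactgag
Robo1 first, chr16:72308206-72308305, plus strand: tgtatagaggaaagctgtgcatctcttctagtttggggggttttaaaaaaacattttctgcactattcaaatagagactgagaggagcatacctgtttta
Nfyc alternative, chr4:120815713-120815812, minus strand: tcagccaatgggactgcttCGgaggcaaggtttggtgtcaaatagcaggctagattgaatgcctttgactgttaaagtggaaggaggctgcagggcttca

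The upstream bases of the alternative TSS held 13 CpGs in Stag1, 11 in Inip, 6 in Runx1 and 6 in Robo1, against 5, 0, 0 and 0 at the first TSS. Stag1, which encodes a subunit of cohesin, had strengths of 139 and 137 in replicates 1 and 2 at the site 45.6 kb inside the annotated gene. Inip, a member of a complex that binds single-stranded DNA, had 137 and 136 at 17.7 kb. Robo1, the axon guidance receptor for Slit proteins, had 122 and 127 at 355 kb. Nfyc, a subunit of the factor NF-Y that binds the CCAAT box, had 133 and 131 at 15.9 kb with 1 CpG and 1 CCAAT box, on either strand, in the bases shown. All of these first TSSs, that of Nfyc included, had no peak in either replicate.

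A minority of the alternative sites were open. In all, 1309 of 5237 (25%) had a peak in both replicates, and a peak was present at 27.2% in replicate 1 and 27.7% in replicate 2. Of the rest, 118 had a peak in replicate 1 only, 144 in replicate 2 only and 3666 in neither. The first TSSs of the same genes were open in 2484 of 3275 cases (75.8%), with 77.2% and 78.4% in replicates 1 and 2. Those of all protein-coding genes were open in 64% (65.1% and 66.8%). Unlike the sites, first TSSs were not required to lie over 5 kb from another gene. Some may therefore share a peak with the promoter of another gene, and how many do was not counted. Over single TSSs, 32.4% of the 6599 alternative ones and 62.3% of all were open. The sites were nevertheless open more often than their surroundings. Windows 3 kb to either side, kept where no TSS lay within 1 kb, were open in 7.26% of 9379 cases (9.15% and 9.88% in replicates 1 and 2). They have the width of a site with 1 TSS, and such sites were open in 19.7% of 4389 cases. Joined sites have wider windows. The midpoints between first TSS and site were open in 6.47% of 4806 (8.45% and 8.8%). Each of these differences exceeded the gap between replicates, and none was tested, since the sites are not replicates and the study has 1 group. Just inside and just outside the limits of the rule, the open share of single TSSs was 31.8% at 10 to 12 kb and 28.6% at 8 to 10 kb from the first TSS. It was 28.9% at 5 to 7 kb and 32.9% at 3 to 5 kb from another gene.

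**Figure D1:**
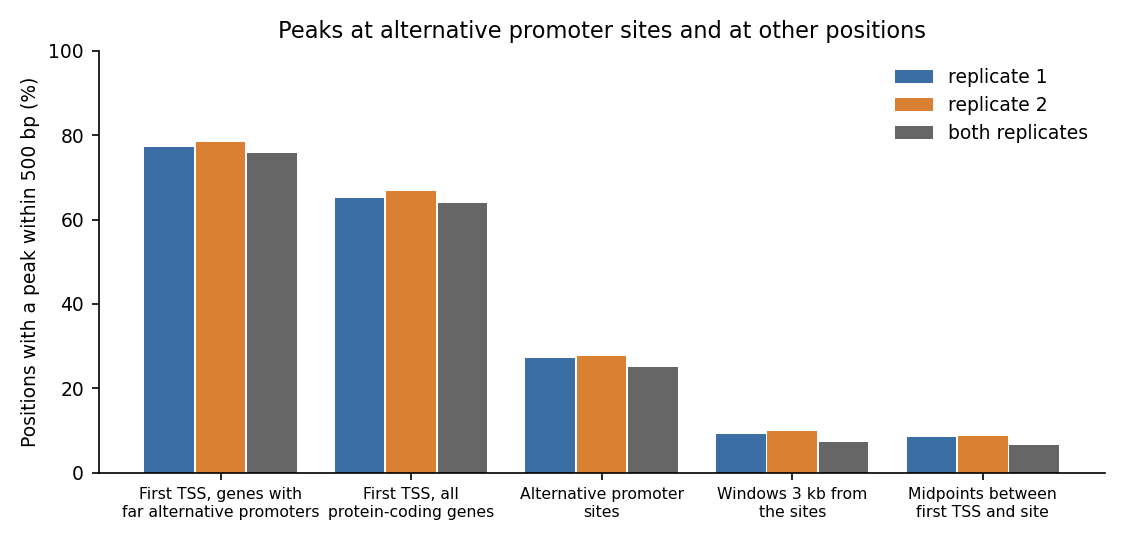
Share of positions with a DNase-seq peak within 500 bp (%, vertical axis) for first TSSs, alternative promoter sites and 2 kinds of position without an annotated TSS nearby, in replicate 1, in replicate 2 and in both. Alternative sites (25% in both replicates) stand between first TSSs (75.8% in the same genes) and windows 3 kb away (7.26%).

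The annotation behind a site went with whether it was open. Of the 5237 sites, 2620 lay inside an exon of a longer transcript of the same gene, one that starts over 500 bp upstream. Of these exonic sites 194 (7.4%) were open. Windows 3 kb from sites of all kinds were open in 7.26%, and those around exonic sites were not counted apart. Of the 2617 outside such exons 1115 (42.6%) were open. Transcript models also differ in completeness. In 2062 sites every transcript was annotated as incomplete at its 5' end, so that the annotated start need not be a real one, and 120 of these (5.82%) were open. With at least 1 complete transcript the share was 37.4% of 3175. The 2 features overlap, since 1937 sites were both exonic and incomplete (5.06% open) and 2492 were neither (43.9% open). Outside exons with a complete 5' end the open share was 37.8% at 10 to 20 kb from the first TSS, 38.9% at 20 to 50 kb, 45.4% at 50 to 100 kb, 53.7% at 100 to 200 kb and 59.2% beyond. Over all sites, those joined from 3 or more TSSs were open in 71.5% of 270 cases and those of 1 TSS in 19.7% of 4389. Outside exons with a complete 5' end the same shares were 76.6% of 235 and 37.5% of 1845. A joined site also has a wider window. Sites whose transcripts start translation at a codon that no complete transcript from 10 kb or more upstream uses, and which therefore predict another N-terminus, were open in 43.1% of 1488 cases. Sites that share the start codon were open in 29.5% of 1513. Sites with no complete coding transcript from 10 kb or more upstream were open in 57.5% of 174. Outside exons with a complete 5' end these shares, in the same order, were 47% of 1301, 37.5% of 1049 and 62.7% of 142.

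Open alternative sites were weaker than open first TSSs. Their median strength was 73 in replicate 1 (quartiles 49 and 103) and 85 in replicate 2 (61 and 110), against 106 and 115 at the open first TSSs of the same genes. Of the open sites 402 (30.7%) had a mean strength of 100 or more, against 62.8% of the open first TSSs. The 1309 open sites rested on 1289 distinct strongest peaks in each replicate, since a few neighbouring sites shared one. All but 1 of the open sites overlapped a hotspot, the authors' wider region of enriched cutting, in both replicates, while 17 of the 3666 sites without a peak did so. Peaks and hotspots were called on the same replicates, so this overlap is no independent evidence. Strength ran in parallel in the replicates, with a Spearman's rho of 0.957 over the open sites. This is a correlation across sites of the same 2 libraries and carries no p-value. Replicate 2 had the higher scores, by a median of 0.17 (SD 0.25) on the log2 scale at open sites and 0.11 at open first TSSs.

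The strongest alternative site belonged to Hdac4, a histone deacetylase that represses MEF2 targets, with strengths of 138 and 145 against 36 and 40 at the first TSS 15.4 kb upstream (site TSS at chromosome 1, 92180341). Srrm2, a protein of splicing speckles, reached 139 in both replicates, with 96 and 100 at the first TSS. Bicdl1, an adaptor of dynein transport, had 140 and 137 against 94 and 95. Tecr, an enzyme of very long chain fatty acid synthesis, was strong at both ends, with 138 and 139 at the site and 133 and 131 at the first TSS. The sites of Hdac4 and Tecr have no complete coding transcript upstream, so their first TSSs start none. The 10 strongest also included Iffo2, Aktip, Kat6b, Stag1 and Dcun1d4, whose first TSSs had no peak in either replicate.

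The median peak at open sites lay near the annotated start, with a wider spread than at first TSSs. The centre of the strongest peak lay at a median of 33.5 bp upstream of the alternative TSS in replicate 1 and 36.5 bp upstream in replicate 2, close to the 37 and 41.5 bp at first TSSs. The upper quartile was 112.5 and 120.5 bp downstream at open sites, against 33.5 and 35.5 bp downstream at first TSSs. In a joined site the distance was taken from the 5'-most TSS whose window held the strongest peak, which need not be the nearest TSS. Of the 1309 open sites, 866 had 1 TSS and the others were joined, so the spreads at sites and first TSSs are not measured alike. The centre lay within 150 bp in 57.4% and 56.5% of open sites, against 69.7% and 68.1% of open first TSSs. In open sites inside an exon of a longer transcript the share was 35.6% and 36.6%, against 61.2% and 59.9% outside exons.

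**Figure D2:**
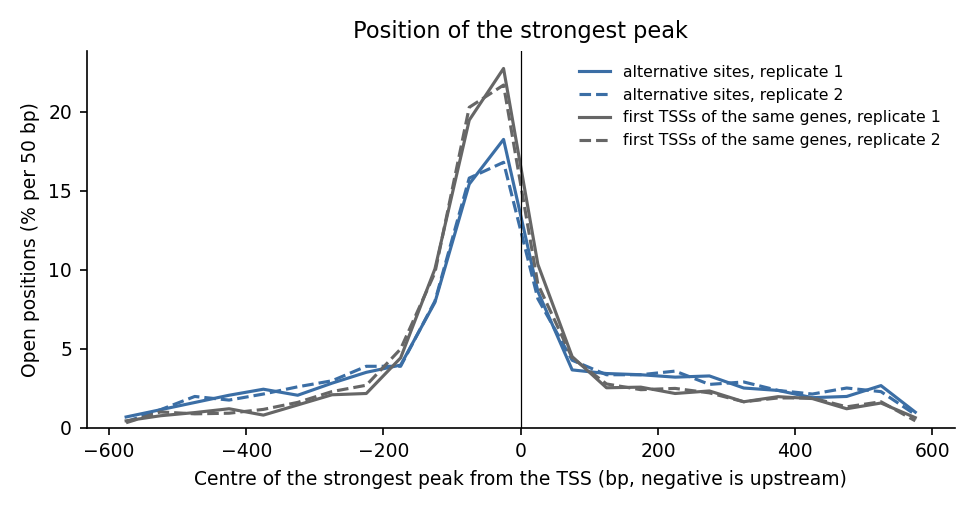
Distance of the centre of the strongest peak from the TSS (bp, negative upstream) for open alternative sites and open first TSSs of the same genes, as the share of open positions per 50 bp (%) in each replicate. The curves peak just upstream of the TSS in both sets, with a lower summit for alternative sites. Joined sites are measured from the 5'-most TSS whose window held the strongest peak.

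The CpG observed to expected ratio within 500 bp had a median of 0.41 at open sites, 0.231 at sites without a peak, 0.753 at open first TSSs of the same genes and 0.203 at their first TSSs without a peak. Among sites with a ratio of 0.8 or more 162 of 167 (97%) were open, as were 90% of 261 from 0.6 to 0.8. The share was 46.9% of 588 sites from 0.4 to 0.6, 18.4% of 2594 from 0.2 to 0.4 and 9.83% of 1627 below 0.2. First TSSs of the same genes ran from 9.43% below 0.2 to 99.4% at 0.8 or more. The median strength of open sites was 53 and 65 in the lowest class and 104 and 111.5 in the highest. The classes differ in number: CpG-poor sites below 0.4 made up 636 of the 1309 open sites.

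**Figure D3:**
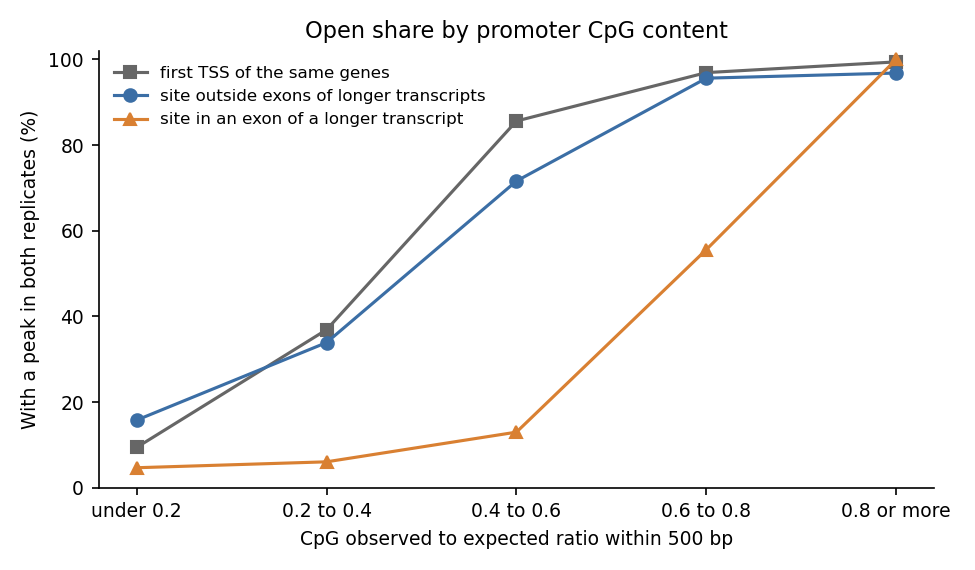
Share open in both replicates (%, vertical axis) by CpG observed to expected ratio within 500 bp (horizontal axis), for first TSSs and for alternative sites inside or outside exons of longer transcripts. The curve of sites outside exons runs from 15.8% to 96.8% and that of first TSSs from 9.43% to 99.4%. These 2 curves lie farthest apart from 0.4 to 0.6, at 71.6% and 85.6%. Sites in exons stay at or below 13% up to a ratio of 0.6, with only 36 and 13 exonic sites in the upper classes.

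Short motifs were searched from 250 bases upstream to 50 downstream of the TSS, on both strands except for TATAAA. The GC box, GGGCGG, was in 37.2% of open sites, 6.03% of sites without a peak, 65.5% of open first TSSs of the same genes and 43.8% of the first TSSs of all genes. The CCAAT box, CCAAT, was in 31.3%, 34.1%, 35.6% and 38.6% of the same sets. The ETS motif CCGGAAG was in 4.74%, 2.21%, 12% and 11%. TATAAA on the strand of the gene, 40 to 20 bases upstream, was in 0.764%, 0.818%, 0.242% and 2.33%. These letters are matches and not measured binding sites, and those of GGGCGG and CCGGAAG contain CpG.

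The first TSS and the alternative site were then set against each other within each gene. Both were open in 729 of 3275 genes (22.3%), the first TSS alone in 1625 (49.6%), an alternative site alone in 223 (6.81%) and neither in 400 (12.2%). In the other 298 genes (9.1%) the first TSS or the sites had a peak in a single replicate only. Among the 223 genes with an open alternative and no peak at the first TSS, 181 had no open protein-coding TSS apart from their alternative sites. Genes with several open alternative sites were not set apart in this count, so it is not a count of genes with a lone open promoter. An alternative site was open in 23.5% of 4007 cases where the first TSS was open and in 28.6% of 1002 where it had no peak. Outside exons and with a complete 5' end these shares were 43.9% and 42.5%.

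In 943 pairs both the site and the first TSS were open. Here too the limit of 5 kb from other genes held for the site and not for the first TSS. A joined site also took the strongest peak over the windows of all its TSSs, against 1 window at a first TSS. The site was the stronger in both replicates in 303 pairs (32.1%) and the first TSS in 559 (59.3%), and 81 were tied or changed sign. The median difference of site minus first was -16 in replicate 1 and -15 in replicate 2. The difference itself shifted between replicates with an SD of 13.3. Beyond 26.6, which is 2 such SDs, 122 sites were stronger and 341 were weaker in both replicates. By gene, the strongest open site exceeded the first TSS in both replicates in 250 of 729 genes and fell below it in 411.

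**Figure D4:**
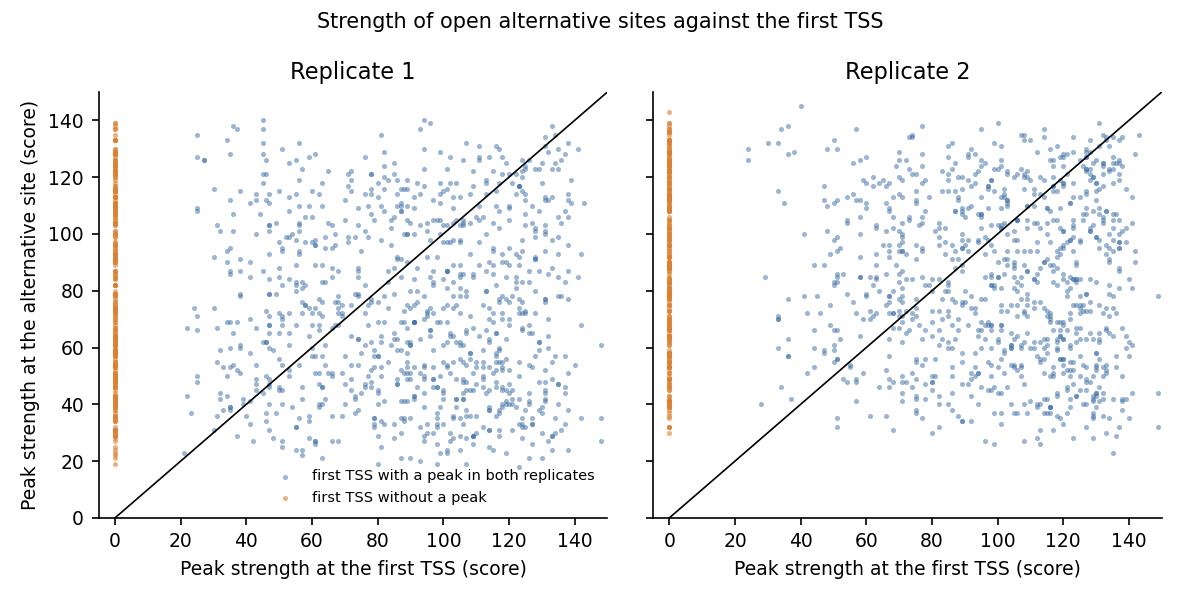
Strength of each open alternative site (vertical axis, score) against the strength at the first TSS of the same gene (horizontal axis, score) in replicates 1 and 2, with the line of equal strength. Orange points have no peak at the first TSS. Points lie on both sides of the line, 303 pairs above it and 559 below it in both replicates.

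Besides Hdac4, the 10 pairs that favoured the site most, ranked by the smaller of the differences in the replicates, included Serbp1, an RNA-binding protein, with 135 and 132 at the site against 25 and 30 at the first TSS 28.4 kb away. Stox2 had 127 and 132 against 25 and 33 over 204 kb. Ndel1, a regulator of dynein in migrating neurons, had 137 in both replicates against 45 and 34, and Pnrc1, a nuclear receptor coactivator, had 128 and 138 against 45 and 36. In each of these genes both site values exceeded both first-TSS values. The sites of Hdac4, Serbp1 and Pnrc1 have no complete coding transcript upstream, whereas those of Stox2 and Ndel1 share a start codon with one. These genes were chosen on this difference, so it is given as a description. Median CpG ratios of the pairs with the stronger site were 0.594 at the site and 0.585 at the first TSS. In pairs with the stronger first TSS they were 0.318 and 0.767.

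In the 287 open sites whose first TSS had no peak, the median strength was 77 in replicate 1 and 89 in replicate 2 and the median CpG ratio 0.476, against 0.222 at their first TSSs. The 10 strongest were in Iffo2 (135 and 143), Aktip (138 and 139), Kat6b (139 and 138), Stag1, Dcun1d4 (137 in both replicates), Inip, Ssc4d (133 and 139), Prr14 (133 in both), Brd3 (129 and 135) and Nfyc. Kat6b is a histone acetyltransferase, Brd3 a reader of acetylated histones and Prr14 a tether of heterochromatin to the nuclear lamina. The Prr14 site has no complete coding transcript upstream. At the other end, the strongest first TSSs in genes without any peak at an alternative site were those of Cep290 (a protein of the cilium's transition zone, 142 and 141), Ddx50 (142 and 141), Hmbox1 (142 and 140) and Shoc2 (141 and 140). The site set against the first TSS lay in an exon of a longer transcript in all of the 10 leading genes and had only 5'-incomplete transcripts in 8.

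Transcription regulators with widely spaced promoters were examined as a list of 61 genes, of which 33 had sites. Of their 86 sites 36 (41.9%) were open, against 25% of all sites, and 43 had no peak. Outside exons and with a complete 5' end, 32 of 61 (52.5%) were open, against 43.9% of all such sites. The strongest open site was that of Ets1, an ETS factor of vessels and neural crest, with 124 in both replicates against 82 and 95 at the first TSS. No complete coding transcript starts at that first TSS. Tcf4, an E protein that partners proneural factors, had no peak at the first TSS and 4 open sites, the strongest 250 kb downstream with 113 and 121. Runx1 had no peak at its first TSS, the distal promoter. The site 129 kb downstream, in the region of the proximal promoter, had 110 and 116, and 2 sites just inside the gene from there shared a peak of 41 and 79. Rara, the retinoic acid receptor alpha gene, had 104 and 112 at its site 32.6 kb inside against 65 and 75 at the first TSS, and its other site, at 11.9 kb, had no peak. Foxp1 had 108 and 107 at 494 kb against 87 and 95.

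In other regulators the first TSS was the stronger end, or neither end was open. Mitf, which directs pigment and eye epithelium, had 121 and 129 there and no peak at any of 3 sites, the farthest 185 kb downstream. Zbtb20 had 142 and 138 at the first TSS and 93 and 101 at its stronger open site. Tcf7l2, the effector of Wnt signalling, had 120 and 128, with 95 and 101 at a site 154 kb inside. The sites of Trp63, the factor of stratified epithelium, and of its relative Trp73 had no peak, and their first TSSs had one in replicate 2 only (34 and 60). Hnf4a, a liver factor, had none at the first TSS or at 2 sites. A promoter used by few cells of the embryo may have no called peak, so that a missing peak and a small share of cells cannot be told apart.

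Nerve cell adhesion and synapse genes had sites in 43 of 61 cases, and 49 of their 126 sites (38.9%) were open, against 25% of all sites. Outside exons and with a complete 5' end 43 of 63 (68.3%) were open, against 43.9% of all such sites. Ptprs, a receptor phosphatase of axons, had 130 and 134 against 117 and 123 at the first TSS. Tenm3, a teneurin of neural wiring, had 121 and 117 at a pair of sites that share a peak 288 kb and 289 kb inside, against 78 and 97. Nrxn3 encodes a neurexin, a presynaptic receptor whose short beta form starts at an internal promoter. It had 1 open site, 1090 kb inside, with 105 and 119 against 106 and 114 at the first TSS. Bdnf, a neurotrophin with several leader exons, had 4 open sites between 17.7 and 19.7 kb, the strongest with 110 and 122. Its site at 34.7 kb had no peak, and its first TSS had one in replicate 2 only (65).

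Cytoskeleton and muscle genes had 152 sites in 43 genes, of which 47 (30.9%) were open, against 25% of all sites. Those outside exons with a complete 5' end were open in 42 of 73 cases (57.5%), against 43.9% of all such sites. Sept9, a septin, had 125 and 126 at a site 133 kb inside against 53 and 70 at the first TSS. Nav2, a protein of neurite outgrowth, had no peak at its first TSS, with 115 and 126 at 50.4 kb and 121 and 128 at 337 kb. Macf1, a linker of microtubules and actin, also had none there, with 115 and 129 at 272 kb. Dst, its relative dystonin, had 117 and 120 at 328 kb against 71 and 88.

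Signalling genes had 111 sites in 47 genes, and 43 were open (38.7%), against 25% of all sites. The share was 36 of 62 (58.1%) among those outside exons with a complete 5' end, against 43.9% of all such sites. Stk3, a kinase of the Hippo pathway, had 122 and 129 at 23.1 kb and none at the first TSS. Notch1, the receptor of lateral inhibition, had 119 and 123 at 12.8 kb against 56 and 73. Gnas, the imprinted locus of the stimulatory G protein, had 110 and 115 at 45.7 kb and 76 and 82 at 43.4 kb, against 63 and 85 at the first TSS. Pde4d, a cyclic AMP phosphodiesterase with many promoters, had 38 and 58 at the first TSS and 5 open sites, the strongest 811 kb inside with 115 and 112. In Fgfr2 the annotated first TSS lies 2857 kb upstream of the open site (114 and 116). The 4 lists were drawn up with results of these data known, and genes were chosen for having several promoters, so their shares above 25% and 43.9% support nothing about the lists.

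Some genes had several open sites. The highest number was 5, reached by Abr, Ank3, Dab2ip, Elavl4 and Nr3c1 and by others such as Pde4d and Stox2, although neighbouring sites can lie in 1 open stretch. In Ank3, the ankyrin of the axon initial segment, the strengths were 89 and 107 at 135 kb, 51 and 71 at 308 kb, 58 and 56 at 387 kb, 46 and 68 at 389 kb and 107 and 120 at 527 kb. Its first TSS had a peak in replicate 2 only (66), and 6 of its 7 other sites, all in exons of longer transcripts with no complete 5' end, had no peak in either replicate. In Dab2ip, a Ras GTPase-activating protein, the first TSS was the weakest of the open promoters in replicate 1 and replicate 2, with 47 and 51, against 103 and 112 at 63.8 kb and 101 and 99 at 134 kb. In Elavl4, an RNA-binding protein of neurons, the order was the other way. The first TSS had 108 and 116 and the sites, all between 59.2 and 65 kb, 93 and 97 at most. Nr3c1, the glucocorticoid receptor gene, had a weak first-TSS peak of 20 in replicate 1 and none in replicate 2. Its 5 sites lay between 28.1 and 32.2 kb, the strongest with 108 and 124.

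**Figure D5:**
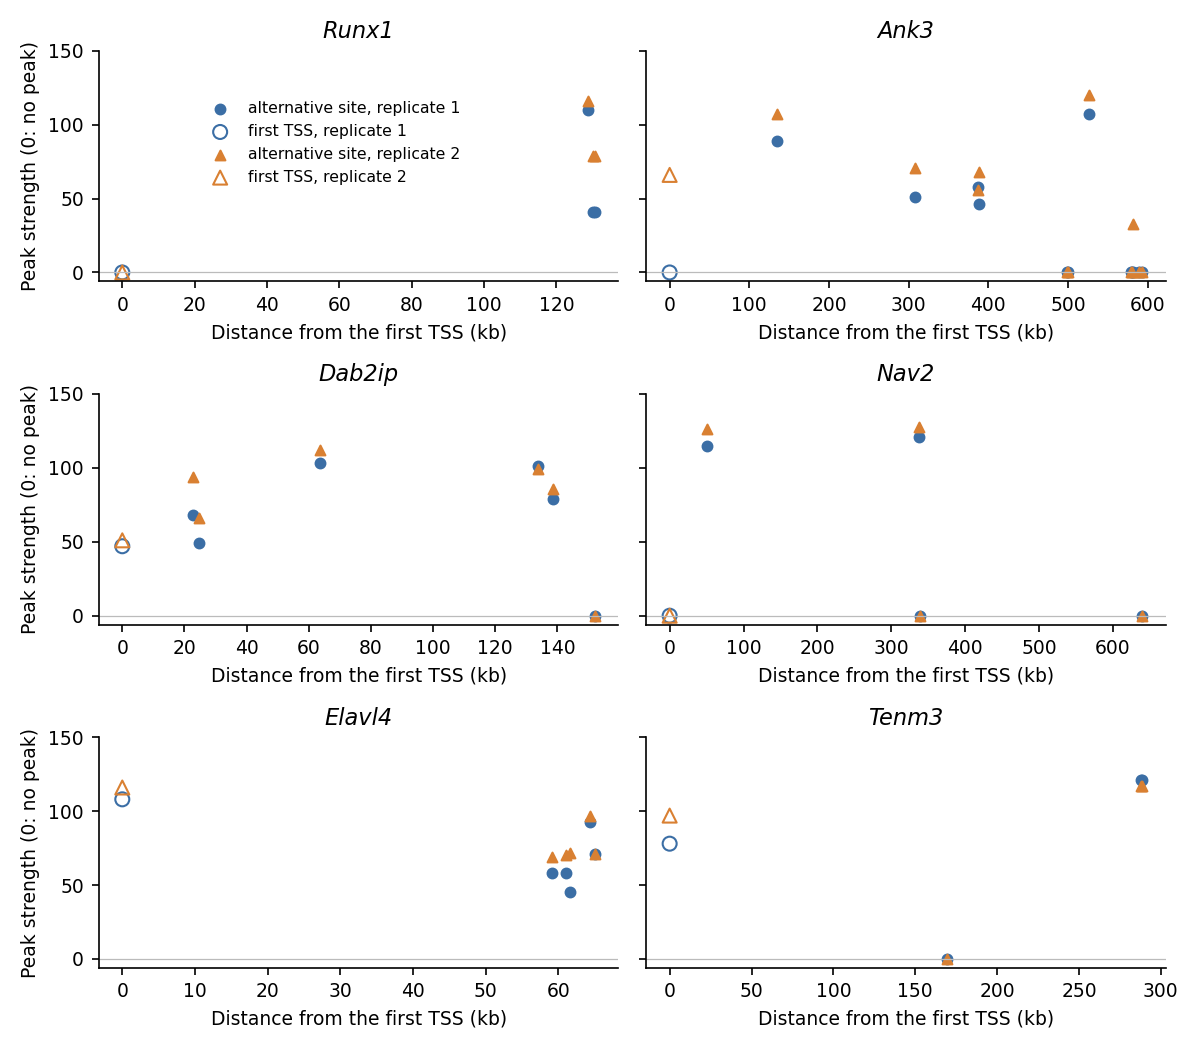
Peak strength (score, 0 where no peak lay within 500 bp) at alternative sites and at the first TSS against distance from the first TSS (kb) in 6 genes, with replicate 1 as circles, replicate 2 as triangles and the first TSS as open symbols. Runx1 and Nav2 have no peak at the first TSS, whereas in Elavl4 the first TSS has the highest strength in both replicates.

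Among genes with 2 or more sites, 571 of 1111 had no open site, 334 had exactly 1 and 206 had 2 or more. Sites open in 1 replicate only were weak, with a median strength of 30.5 in replicate 1 and 38 in replicate 2. The strongest such site in replicate 1 was in Spag9 (127), whose peak overlaps or touches one of 123 in replicate 2 that falls just outside the 500 bp window. The same was found for Mecom, Kat6b and Ptp4a3, the next strongest. This Kat6b site, at 18.3 kb, is not the one at 19.4 kb that was open in both replicates. In replicate 2, Nfic (98) and Tspan5 (65) likewise had a touching or overlapping peak in replicate 1. The nearest replicate 1 peaks of Trim7, Cxxc5 and Synpo lay 610, 930 and 750 bp away, and the nearest replicate 2 peak of Cep41 650 bp away.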

How the data were processed

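DNase-seq peaks and hotspots of 2 replicates were used. The authors aligned reads to mm10 and called peaks and hotspots replicate by replicate, per the notes deposited with each sample. The sources used here give no aligner, caller or threshold. The deposited peak score is a whole number from 2 to 150, of unstated definition, and reaches 150 in both replicates. Deposited hotspots carry the −log10 of a q-value, which was not used to filter. Repeated peak lines were dropped.

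TSSs came from GENCODE M21 on GRCm38, whose chromosomes are those of mm10. The first TSS was the 5'-most over all transcripts of a gene, at any distance from other genes. A peak counted when it overlapped the 500 bp to either side of a TSS by 1 bp or more, and the strongest was taken. For a joined site it was the strongest over all its TSSs. A joined site was represented for sequence by the TSS with most transcripts. Peak assignment and the choice of members were tested on simulated peaks and by recounting. Python 3.11.15, pandas 2.3.3, SciPy 1.17.1 and samtools 1.23.1 were used.

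The members, lists and rules were chosen with earlier results of these data known. Named sites were the 10 strongest, the 10 that most exceeded the first TSS, the 10 strongest with no first-TSS peak, the 10 strongest first TSSs with no site peak, 5 genes with most open sites, the first by name among ties, the 5 strongest sites of 1 replicate only, and 5 open and 5 closed sites per list. Mitf, Trp63, Trp73, Tcf7l2, Zbtb20 and Nrxn3 among others were named after their values were seen. Some sites that the rule names are not reported here. With 1 group, no test or p-value was computed. Alternatives changed the window, the peaks, the rule, the annotation and the replicates.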

Additional observations from a re-analysis of the deposited data

How the results depend on the processing

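The share of open sites, 25% as reported, was 22% with a window of 250 bp and 29.5% with 1000 bp, 20.1% with the stronger 50% of peaks, 24.2% where the peak centre had to lie within 500 bp, and 25.8% at 20 kb or more. It was 25.7% over 10 kb from other genes, 26.3% with other protein-coding genes only, 24% with the first TSS from protein-coding transcripts, and 32.4% with every TSS counted. Stricter annotation moved it most, to 39% with basic transcripts, 40.7% with support level 1 and 42.6% outside exons. Without one replicate it was 27.2% to 27.7%.

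The share of open first TSSs, 75.8%, was 71.1% at 250 bp, 78.8% at 1000 bp, 70.9% with the stronger peaks, 78.5% at 20 kb, 77.3% with protein-coding first TSSs, 68.4% with basic transcripts, 72.1% with support level 1, 71% outside exons and 77.2% to 78.4% without one replicate. The share of pairs with the stronger site, 32.1%, was 28.5% at 1000 bp, 33.9% with the stronger peaks, 31.4% at 20 kb, 30.9% with protein-coding first TSSs, 36.2% with basic transcripts, 39.1% with support level 1, 34.7% outside exons, 34.9% with every TSS and 34.4% to 35.6% without one replicate. The share with the stronger first TSS, 59.3%, was 58.6% at 250 bp, 63.3% at 1000 bp, 56% with the stronger peaks, 58.2% by peak centre, 60.1% at 20 kb, 60.5% with protein-coding first TSSs, 54.2% with basic transcripts, 51.2% with support level 1, 56.5% outside exons, 55% with every TSS and 63.7% to 64.5% without one replicate. Genes with an open alternative alone, 223 as reported, fell to 144 at 20 kb, where fewer sites enter, and to 159 with support level 1. They rose to 251 with the stronger peaks, 267 with other protein-coding genes only, and 268 to 278 without one replicate.

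The shares given here moved by more than the SD between replicates, and under each alternative the first TSS was the stronger in more pairs. Without one replicate, a peak in both and the same sign in both are no longer required, so the open shares cannot fall. The causes of the other shifts were not tested. Sites and first TSSs were paired within genes in each replicate, without a test. Replicates could not be paired between groups, because there was a single group of samples. The undefined score, the unknown depth and the mix of tissues limit what a missing peak shows.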
